A study of Homo sapiens with 4 samples.

Results

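The E2F and retinoblastoma family comprises the E2F transcription factors, their DP dimerization partner and the pocket proteins that bind them. Its members were taken by name from the gene table, as E2F1, E2F2, E2F3, E2F4, E2F7, E2F8, TFDP1, RB1, RBL1 and RBL2. Of these 10 genes, 9 were measured among 12912 genes in all, and the mRNA of E2F2 was not analysed here. Bulk RNA-seq was carried out on 786-O, a clear cell renal cell carcinoma line that lacks functional VHL, the substrate receptor of a ubiquitin ligase that degrades HIFα. The 786-O-Ctrl group (2 libraries, genotype given as wild type and VHL-null) was compared with the 786-O-VHL group (2 libraries, genotype VHL restoration), in which a retroviral vector expressed HA-tagged VHL. The labels name the triple-reporter versions (786-OTR), so both groups also carried a retroviral vector for GFP, luciferase and thymidine kinase, and both were grown in RPMI1640 with serum. Each group is a single subline, so the comparison is between these sublines.

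E2F factors bind DNA as dimers with a DP protein and drive the genes for DNA replication and cell cycle entry. RB1 and its relatives p107 (RBL1) and p130 (RBL2) hold E2F factors in repressive complexes until cyclin-dependent kinases phosphorylate them, and p130 or p107 with E2F4, DP and the MuvB core form the DREAM complex that silences cell cycle genes in quiescent cells. In clear cell renal carcinoma, cyclin D1, which starts this phosphorylation, is a known target of HIF2α.

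The deposited counts summed to 22141263 in the deeper 786-O-Ctrl library, 15714166 in the shallower 786-O-Ctrl library, 2807779 in 786-O-VHL replicate 1 and 16114120 in 786-O-VHL replicate 2. The deepest library was therefore 7.89 times as deep as the shallowest. The upper limit for a count of 0 was taken as 3 counts, or 0.142, 0.199, 1.02 and 0.178 CPM (TMM-scaled counts relative to library size) in the same order, and these floors cover counting error only. Mitochondrial genes took 2.46% and 2.62% of the counts in 786-O-Ctrl against 1.98% and 1.79% in 786-O-VHL. The part of this share in the differences was not tested, whereas depth was examined by thinning all libraries to equal depth. Replicates differed by more than sampling noise (chi-square per degree of freedom of 2.25 for 786-O-Ctrl, 2.87 for 786-O-VHL), and all 4 libraries were kept as replicates. Nothing in the labels says that replicates were separate cultures, so the p-values measure only the spread between these libraries, which may be technical.

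The libraries matched their labels at the restored gene. VHL mRNA was 42.9 and 43.9 CPM in 786-O-Ctrl against 178 and 163 CPM in 786-O-VHL (log2 fold change 1.96, standard error 0.0706, edgeR FDR = 2.86e-19). The kidney tubule lineage factors PAX8 (277, 272, 166 and 137 CPM, libraries in the order used for depth) and PAX2 (38.6, 38.7, 34.9 and 27.6 CPM) were present in every library, as were CDH6, CDH16 and LHX1. Summed over the 6 markers of the lineage list the level was 571, 562, 612 and 456 CPM. PAX8 (−0.90) and PAX2 (−0.40) were lower and CDH16 (1.75) and CDH6 (0.45) higher in 786-O-VHL on the log2 scale (edgeR FDR from 1.32e-11 to 0.00156), and the part of such shifts in the results was not tested. The leukocyte marker CD14 reached at most 1.02 CPM and the endothelial marker PECAM1 at most 0.427 CPM, and PTPRC, CD3E, CDH5 and ALB were not analysed here.

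Between the sublines, 7 of the 9 members passed an edgeR FDR of 0.05 with lower mRNA in 786-O-VHL, 0 with higher mRNA, and RB1 and RBL2 were not called. At an unadjusted p under 0.05, 1 member (RBL2) was higher with edgeR, and DESeq2 and limma-voom also called 0 higher at their FDR. Over all 12335 genes tested, 31.9% were lower and 32.6% higher at that threshold, so calls were common in both directions. The median log2 fold change (786-O-VHL over 786-O-Ctrl) was −0.70 over the members and 0.02 over all genes tested. In 7 members both 786-O-VHL libraries lay below both 786-O-Ctrl libraries, as did 39.2% of all genes tested. The threshold of the study, over 4-fold with an FDR under 0.01, was passed on the lower side by E2F1 and by 1.54% of all genes. The 7 members ranged widely, from −2.59 for E2F1 to −0.20 for E2F4, and the calls of E2F3 and E2F4 depended on the processing. In bulk RNA, fewer cells in a cycle phase that expresses a gene and less of its RNA per cell cannot be told apart.

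**Figure D1:**
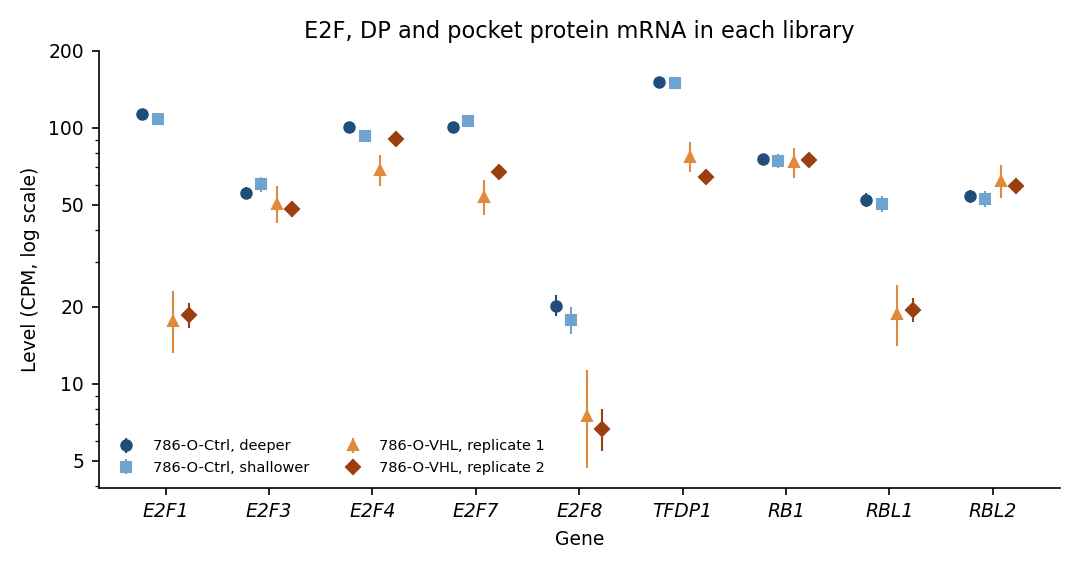
CPM of each of the 9 members (log axis) in each of the 4 libraries, with 95% counting intervals as vertical bars and a color and symbol for each library. E2F1 falls from 113 and 108 to 17.6 and 18.5 CPM, whereas the 4 points of RB1 lie between 73.3 and 75.5 CPM.

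E2F1 (ENSG00000101412.13, chr20:32263283-32274191 of GRCh37, minus strand, with no other annotated gene across it) is the founding activator of the family. Its counts were 2374 and 1623 in 786-O-Ctrl against 52 and 312 in 786-O-VHL, which correspond to 113, 108, 17.6 and 18.5 CPM. Both 786-O-Ctrl libraries were high and both 786-O-VHL libraries low, with no overlap and with replicates close to each other. The mean fell from 110 ± 3.44 to 18.1 ± 0.628 CPM (SD, n = 2 each; edgeR), a log2 fold change of −2.59 (standard error 0.0883, 95% interval −2.77 to −2.41, edgeR FDR = 9.6e-20). This is 6.01-fold lower and the largest change among the 9 members. Among all genes tested, E2F1 ranked 35 by p-value and 102 by the size of the fall. E2F factors are known to act on the E2F1 promoter itself, and the 300-base promoter windows of RefSeq (GRCh38.p14, 250 bases before to 50 bases after a listed start) were therefore searched for the E2F letters TTTCGCGC and TTTGGCGC on both strands. Of 27305 genes with a window, 382 (1.4%) hold them, as do 236 (2.4%) of 9755 genes tested with a window, and of 8 measured members with a window, E2F1, RBL1 and TFDP1 do (37.5%). E2F2 is left out of this share because it was not measured, although its window also holds TTTGGCGC, from position −42. The 8 members include RB1, whose only window begins at a start inside the gene. The E2F1 match begins at position −20 from the start, on the strand of the gene. The stretch around it, chr20:33686368-33686435 of GRCh38.p14 (minus strand, 5′ to 3′, matching letters in capitals), is shown because E2F1 fell most.
E2F1: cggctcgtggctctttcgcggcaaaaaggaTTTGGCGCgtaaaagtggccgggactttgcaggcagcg

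E2F3 (ENSG00000112242.15, chr6:20402110-20493945 of GRCh37, plus strand), the other activator measured, shifted far less than E2F1. It was at 55.6 and 60.2 CPM in 786-O-Ctrl against 50.2 and 48.0 CPM in 786-O-VHL. The groups did not overlap, but their nearest libraries lay about as close as the 786-O-Ctrl libraries did to each other. The log2 fold change was −0.25 (standard error 0.0819, 95% interval −0.42 to −0.08, edgeR FDR = 0.00916). The call was lost with DESeq2 at a fold change of the same size (−0.26, standard error 0.135, FDR = 0.0957). It was also lost with library totals alone (−0.12, edgeR FDR = 0.216), at equal depth (−0.20, standard error 0.138, edgeR FDR = 0.239), without the shallower 786-O-Ctrl library (−0.20, edgeR FDR = 0.183) and without 786-O-VHL replicate 2 (−0.21, edgeR FDR = 0.196). Smaller annotated genes overlap it on both strands, and their reads may be counted with it. The exact E2F letters are not in its windows. Near variants were not searched, and the stretch below holds tttcgcgg and cttggcgc. The E2F1 stretch also holds tttcgcgg, in lowercase. The stretch at the first listed start, chr6:20401819-20401888 of GRCh38.p14 (plus strand, 60 bases before to 10 after, no capitals since nothing matched), is given for comparison with E2F1.
E2F3: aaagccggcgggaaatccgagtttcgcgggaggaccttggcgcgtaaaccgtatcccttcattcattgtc

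E2F4 (ENSG00000205250.9, chr16:67226058-67232821 of GRCh37, plus strand) is the E2F that mostly works with p130 and p107 in repression. It was at 101 and 92.8 CPM in 786-O-Ctrl against 68.2 and 90.4 CPM in 786-O-VHL. Replicate 1 of 786-O-VHL, the shallowest library, stood apart, while replicate 2 was just below the 786-O-Ctrl libraries. The log2 fold change of −0.20 (standard error 0.0822, 95% interval −0.37 to −0.03, edgeR FDR = 0.0339) rested on that library, and without it the value was −0.10 (edgeR FDR = 0.174). The call was also lost without the deeper 786-O-Ctrl library (−0.17, edgeR FDR = 0.202), with DESeq2 (−0.27, standard error 0.132, FDR = 0.083), with library totals alone (−0.07, edgeR FDR = 0.474) and at equal depth (−0.21, standard error 0.126, edgeR FDR = 0.166). With DESeq2 and at equal depth the fold change was no smaller and its standard error was larger. Without 786-O-VHL replicate 2 the value was −0.51 (edgeR FDR = 0.000342). No E2F letters were found in its window.

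The atypical factors E2F7 and E2F8 bind DNA without a DP partner, repress E2F targets late in S phase and are themselves E2F targets. E2F7 (ENSG00000165891.16, chr12:77415028-77459349 of GRCh37, minus strand) was at 101 and 106 CPM in 786-O-Ctrl against 53.6 and 67.0 CPM in 786-O-VHL. The groups were well separated, with replicate 1 the lower of the 786-O-VHL pair. Its log2 fold change was −0.70 (standard error 0.0784, edgeR FDR = 8.67e-09), or 1.63-fold lower. E2F8 (ENSG00000129173.13, chr11:19245610-19263167 of GRCh37, minus strand) was at 20.2 and 17.7 CPM in 786-O-Ctrl against 7.46 and 6.65 CPM in 786-O-VHL. Here too the groups did not overlap, although the value of 786-O-VHL replicate 1 came from 22 counts, with a 95% counting interval of 4.68 to 11.3 CPM. The log2 fold change was −1.49 (standard error 0.164, 95% interval −1.82 to −1.15, edgeR FDR = 6.42e-09), or 2.80-fold lower. An antisense gene, CSRP3-AS1, crosses E2F8 on the opposite strand, and since the use of strand in counting is not given, reads of the pair cannot be told apart. The window of E2F7 holds no E2F letters.

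TFDP1 (ENSG00000198176.13, chr13:114239036-114295788 of GRCh37, plus strand) encodes DP1, the common partner of the typical E2F factors. It was at 151 and 150 CPM in 786-O-Ctrl against 77.0 and 64.1 CPM in 786-O-VHL. The 786-O-Ctrl libraries were almost equal and both were far above the 786-O-VHL libraries. The log2 fold change was −1.16 (standard error 0.0751, edgeR FDR = 1.13e-13), or 2.23-fold lower. The TFDP1 window holds TTTCGCGC on the opposite strand, which reads GCGCGAAA on the strand of the gene and begins at position −120. It lies in chr13:113584603-113584670 of GRCh38.p14 (plus strand, matching letters in capitals), printed because this is 1 of the 3 measured members with a match.
TFDP1: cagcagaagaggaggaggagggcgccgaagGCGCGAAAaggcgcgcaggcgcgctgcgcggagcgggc

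Of the 3 pocket protein genes, RBL1 was lower in 786-O-VHL, whereas RB1 and RBL2 were not called. RB1 (ENSG00000139687.15, chr13:48877880-49173572 of GRCh37, plus strand), the retinoblastoma tumor suppressor, was at 75.5 and 74.2 CPM in 786-O-Ctrl against 73.3 and 74.9 CPM in 786-O-VHL. The libraries of the groups overlapped, and the log2 fold change was −0.01 (standard error 0.0710, 95% interval −0.15 to 0.14, edgeR FDR = 0.936), turning to 0.13 with library totals alone and to 0.17 at equal depth. Several annotated genes lie across RB1, among them LPAR6 and RCBTB2 on the opposite strand, so some of its counts may belong to them. RBL1 (ENSG00000080839.11, chr20:35624752-35724400 of GRCh37, minus strand), which encodes p107 and is a known E2F target, was at 52.2 and 50.2 CPM in 786-O-Ctrl against 18.7 and 19.5 CPM in 786-O-VHL. Replicates nearly coincided within each group and the groups were far apart. The log2 fold change was −1.41 (standard error 0.102, 95% interval −1.62 to −1.20, edgeR FDR = 1.12e-12), or 2.65-fold lower. RBL2 (ENSG00000103479.16, chr16:53467889-53525560 of GRCh37, plus strand), which encodes p130, was at 54.0 and 52.7 CPM in 786-O-Ctrl against 62.1 and 59.2 CPM in 786-O-VHL. Both 786-O-VHL libraries were above both 786-O-Ctrl libraries, but the log2 fold change of 0.17 (standard error 0.0778, 95% interval 0.01 to 0.33) missed the threshold (edgeR FDR = 0.0619). With library totals alone it was 0.30 (edgeR FDR = 0.00132). Annotated genes also overlap RBL1, and AKTIP and others lie on the opposite strand of RBL2, with the same uncertainty as for RB1.

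The RBL1 and RBL2 promoters are set side by side because RBL1 was called lower and the related RBL2 was not called. The pair was chosen by these calls, and the part of the letters in them was not tested. E2F3, E2F4 and E2F7 were called lower with no match. RBL1 holds both sets of E2F letters, TTTCGCGC from position −26 and TTTGGCGC from position −16, within chr20:37095976-37096053 of GRCh38.p14 (minus strand, matches in capitals). RBL2 has no match in either of its windows, and its first listed start is shown as chr16:53434411-53434480 of GRCh38.p14 (plus strand, 60 bases before to 10 after). The only RefSeq window of RB1 begins at a start inside the gene, and no match was found there. A match is a description of the letters in a window and says nothing of binding. Other forms of E2F sites were not searched, so a window without a match may hold them.
RBL1: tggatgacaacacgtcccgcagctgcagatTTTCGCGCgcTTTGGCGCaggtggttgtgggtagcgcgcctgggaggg
RBL2: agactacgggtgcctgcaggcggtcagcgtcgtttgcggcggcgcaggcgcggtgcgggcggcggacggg

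Levels of different genes were compared as CPM per kb of exon, with exon lengths from the annotation. On that scale E2F1 and TFDP1 were the most abundant members in 786-O-Ctrl, at 41.0 ± 1.28 and 40.2 ± 0.263 CPM per kb (SD, n = 2), and did not differ beyond their spread. E2F4 followed with 26.9 ± 1.52, then E2F7 with 16.4 ± 0.596. RB1 (11.6 ± 0.147) and E2F3 (11.2 ± 0.627) changed places between the 786-O-Ctrl libraries, and RBL1 (8.60 ± 0.231), RBL2 (6.58 ± 0.113) and E2F8 (4.59 ± 0.425) came last. In 786-O-VHL the order was different, with E2F4 (22.1 ± 4.38) and TFDP1 (18.8 ± 2.43) first, in an order that differed between the replicates. RB1 (11.5 ± 0.184) held the position after them in both libraries, ahead of E2F7 (9.58 ± 1.50), E2F3 (9.47 ± 0.295) and RBL2 (7.48 ± 0.250). E2F1, at 6.72 ± 0.233 CPM per kb, ranked 7 of 9 in both 786-O-VHL libraries, above RBL1 (3.20 ± 0.0974) and E2F8 (1.71 ± 0.139).

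**Figure D2:**
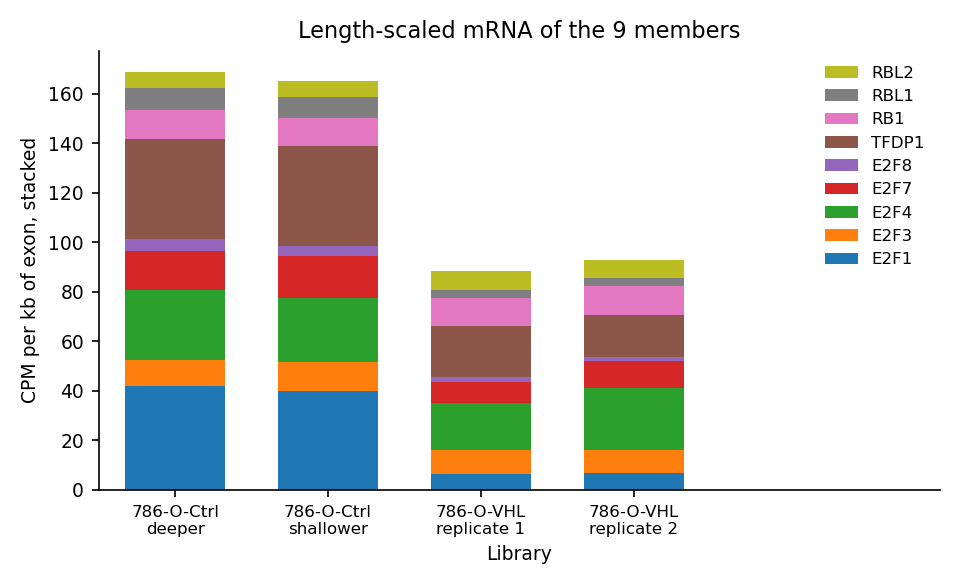
Stacked CPM per kb of exon of the 9 members in each of the 4 libraries, with each band a member. The stack is 169 and 165 high in 786-O-Ctrl against 88.3 and 92.9 in 786-O-VHL, and the E2F1 band shrinks from 41.9 and 40.1 to 6.56 and 6.89.

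The summed level of the members was 169 and 165 CPM per kb in 786-O-Ctrl against 88.3 and 92.9 in 786-O-VHL, 1.85-fold lower. E2F1 made up 24.8% and 24.3% of that sum in 786-O-Ctrl against 7.43% and 7.41% in 786-O-VHL. The share of the 3 pocket proteins was 16.1% and 16.0% in 786-O-Ctrl against 25.1% and 23.9% in 786-O-VHL, with their own sum at 27.2, 26.5, 22.2 and 22.2 CPM per kb. Per length, E2F1 was 3.57 and 3.48 times RB1 in 786-O-Ctrl against 0.576 and 0.591 times RB1 in 786-O-VHL. The ratio of E2F1 to E2F4 went from 1.50 and 1.55 to 0.346 and 0.274. Among the pocket proteins, RBL1 was 1.32 and 1.30 times RBL2 in 786-O-Ctrl against 0.409 and 0.448 times RBL2 in 786-O-VHL, so their order per length was inverted. That inversion depends on the exon lengths (5956 and 8110 bases), since in CPM RBL1 was already just below RBL2 in both 786-O-Ctrl libraries. E2F8 was 0.306 and 0.255 times E2F7 in 786-O-Ctrl against 0.212 and 0.151 times E2F7 in 786-O-VHL. These ratios of mRNA are descriptions with no test, and protein was not analysed here.

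Of 3 further E2F and DP genes, 2 were higher and 1 not called (edgeR; median 0.21). Counts of calls in this and the following lists are to be read beside 31.9% lower and 32.6% higher over all genes tested. E2F5, a further repressive E2F, was at 16.5 and 17.1 CPM in 786-O-Ctrl against 32.9 and 31.2 CPM in 786-O-VHL, so that both 786-O-VHL libraries were near 1.89 times the 786-O-Ctrl level (log2 fold change 0.92, standard error 0.115, edgeR FDR = 7.23e-08). E2F6, a repressor that does not bind pocket proteins, was at 23.1, 24.5, 22.4 and 24.4 CPM, with overlapping groups and a log2 fold change of 0.01 (edgeR FDR = 0.938) whose sign changed between analyses. TFDP2, the DP2 partner, was at 48.0, 46.2, 49.9 and 56.3 CPM (log2 fold change 0.21, edgeR FDR = 0.0266). That call was lost with DESeq2 (0.17, FDR = 0.324), at equal depth (0.05, edgeR FDR = 0.782), without the deeper (0.23, edgeR FDR = 0.14) or the shallower (0.17, edgeR FDR = 0.262) 786-O-Ctrl library and without 786-O-VHL replicate 2 (0.07, edgeR FDR = 0.669). TFDP3 was not analysed here.

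**Figure D3:**
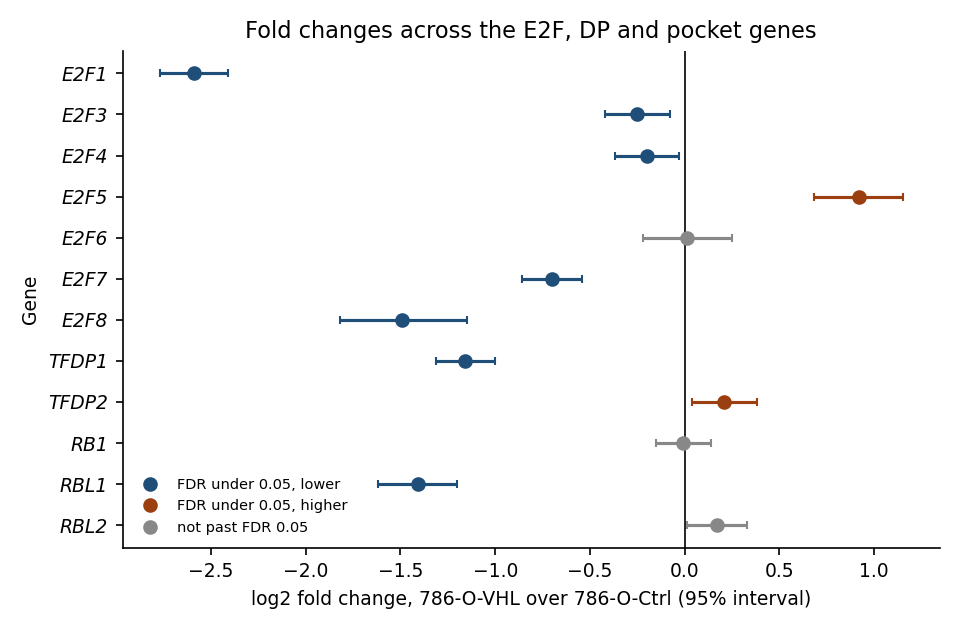
Log2 fold change (786-O-VHL over 786-O-Ctrl, points, with 95% intervals as bars) of the 9 members and of E2F5, E2F6 and TFDP2 from edgeR, colored by direction where the FDR was under 0.05. E2F1 lies farthest to the left at −2.59, the intervals of RB1 and E2F6 cross 0, and E2F5 lies farthest to the right at 0.92.

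Of 7 genes of the MuvB core and its partners, 4 were lower and 3 not called (edgeR; median −0.32). The falls were largest in MYBL2 (B-MYB, 301 and 289 against 103 and 108 CPM, log2 fold change −1.47, edgeR FDR = 5.39e-17) and FOXM1 (195 and 195 against 79.7 and 84.0 CPM, −1.24, edgeR FDR = 3.25e-15), the factors that carry the program into G2/M. Within the core itself RBBP4 was lower by a small amount (−0.32, edgeR FDR = 0.000148). LIN9 (15.3, 15.1, 15.6 and 9.15 CPM) was lower in 786-O-VHL replicate 2 only. Its log2 fold change of −0.53 (edgeR FDR = 0.00862) became 0.03 (edgeR FDR = 0.92) without that library, and the call was also lost with DESeq2 (−0.42, FDR = 0.202), at equal depth (−0.20, edgeR FDR = 0.577) and without the deeper 786-O-Ctrl library (−0.48, edgeR FDR = 0.0694). LIN37 (0.77, edgeR FDR = 0.13), LIN52 (0.13, edgeR FDR = 0.556) and LIN54 (−0.17, edgeR FDR = 0.183) were not called, LIN37 at 5 to 25 counts a library. Annotated genes overlap LIN37 on both strands, and how shared reads were counted is not given.

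Upstream of the pocket proteins, 6 of 9 cyclins and kinases were lower and 2 not called (edgeR; median −0.76, in which CCND2 is the highest value whether fitted or at its bound). The remaining gene, CCND2, was called higher, but it passed the filter on low counts only through 786-O-VHL and could not be tested at equal depth or without either 786-O-VHL library, so its call supports no count. Cyclin D1 (CCND1) was at 1186 and 1213 CPM in 786-O-Ctrl against 462 and 465 CPM in 786-O-VHL. Replicates were nearly equal and the fall was 2.59-fold (log2 fold change −1.37, edgeR FDR = 2.55e-17). CCND3 fell less (−0.64, edgeR FDR = 3.19e-08), and CCND2, with 0 counts throughout 786-O-Ctrl, had 3 and 13 in 786-O-VHL, at least 9.73-fold higher against a floor of 3 counts over both 786-O-Ctrl libraries. Their kinases CDK4 (122, 118, 128 and 132 CPM, 0.12, edgeR FDR = 0.104) and CDK6 (339, 341, 308 and 323 CPM, −0.10, edgeR FDR = 0.154) were not called. CDK4 was called higher with library totals alone (0.25, edgeR FDR = 0.00102) and without 786-O-VHL replicate 1 (0.14, edgeR FDR = 0.038), and CDK6 lower without 786-O-VHL replicate 2 (−0.15, edgeR FDR = 0.0417). Among the later cyclins and kinases, which are E2F targets themselves, CDK2 (−1.62, edgeR FDR = 1.52e-13) and CCNA2 (−1.11, edgeR FDR = 1.05e-13) fell. CCNE2 counts were 289 and 183 in 786-O-Ctrl against 6 and 11 in 786-O-VHL (−3.89, edgeR FDR = 5.88e-12). The size of that fall is uncertain, at −2.68 without 786-O-VHL replicate 2, −4.30 without replicate 1 and −2.89 at equal depth, with the call kept each time (edgeR FDR = 1.18e-05, 9.3e-13 and 2.75e-07). CCNE1 was at 9.36, 9.57, 6.78 and 5.29 CPM (−0.76, edgeR FDR = 0.00169), a call lost with DESeq2 (−0.73, FDR = 0.053), at equal depth (−0.27, edgeR FDR = 0.505) and without 786-O-VHL replicate 2 (−0.48, edgeR FDR = 0.237).

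Of 5 CDK inhibitors, 3 were higher, 1 lower and 1 not called (edgeR; median 0.31), while CDKN2A and CDKN2B were not analysed here. CDKN1A (p21) was at 332 and 365 CPM in 786-O-Ctrl against 481 and 570 CPM in 786-O-VHL, higher in both 786-O-VHL libraries (0.61, edgeR FDR = 1.73e-08). CDKN1B (p27) was at 57.7, 62.1, 74.0 and 74.4 CPM (0.31, edgeR FDR = 0.000545), a call lost without the deeper 786-O-Ctrl library (0.25, edgeR FDR = 0.0699). CDKN1C (p57) had 22 and 32 counts in 786-O-Ctrl against 21 and 102 in 786-O-VHL, or 1.04, 2.13, 7.12 and 6.06 CPM, a rise from a low level (2.05, edgeR FDR = 1.86e-06). The rise was smaller at equal depth (1.32, edgeR FDR = 0.0249) and ranged from 1.57 to 2.59 when a library was left out. CDKN2C (p18) went the other way, from 91.2 and 90.8 to 40.7 and 41.9 CPM (−1.13, edgeR FDR = 3e-13). CDKN2D (p19) was at 18.0, 17.5, 11.2 and 16.2 CPM (−0.24, edgeR FDR = 0.143) and was called lower only without 786-O-VHL replicate 2 (−0.67, edgeR FDR = 0.0259).

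**Figure D4:**
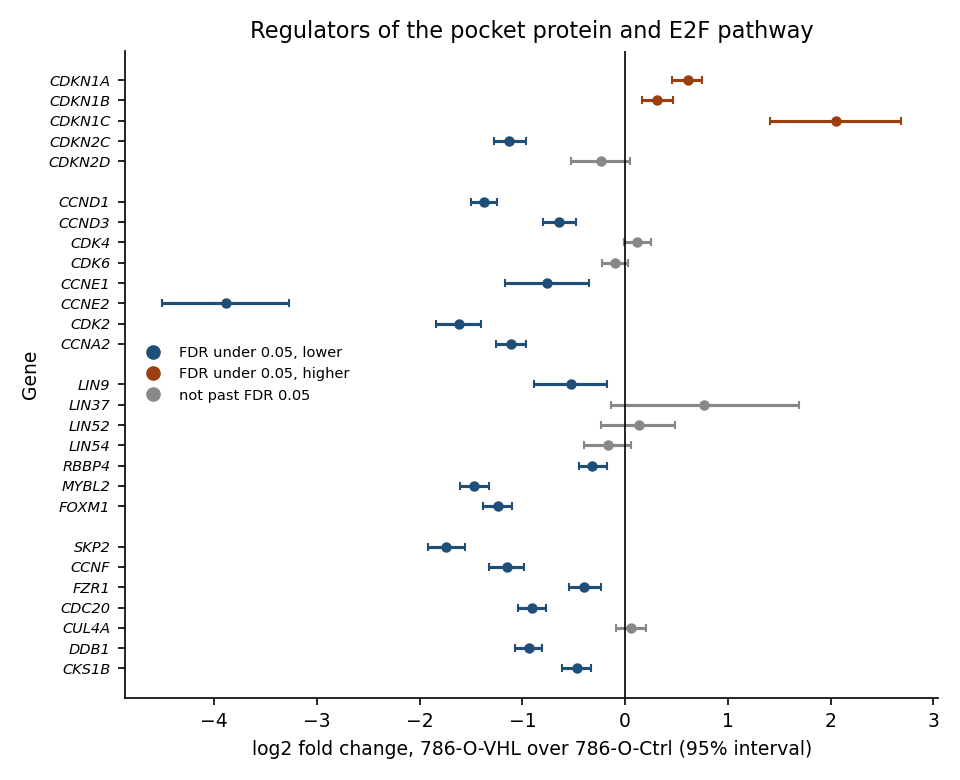
Log2 fold changes (786-O-VHL over 786-O-Ctrl, points, with 95% intervals as bars) of the genes that act on or with the pocket proteins, in the order CDK inhibitors, cyclins and kinases, MuvB genes and ligases, without CCND2, which had no counts in 786-O-Ctrl. CCND1, CDK2, SKP2 and MYBL2 lie at −1.37, −1.62, −1.74 and −1.47, and CDKN1A at 0.61.

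The corepressors that pocket proteins recruit were mixed, with 5 of 9 lower, 2 higher and 2 not called (edgeR; median −0.20). Over all genes tested, 31.9% were lower and 32.6% higher. The histone methyltransferase SUV39H1 fell from 26.5 and 22.9 to 9.84 and 8.97 CPM (−1.44, edgeR FDR = 1.1e-09). The deacetylase HDAC1 (−0.78), the SWI/SNF ATPase SMARCA4 (−0.50) and the histone-binding RBBP7 (−0.43) were lower by less. The call of HDAC2 (−0.20, edgeR FDR = 0.00835) was lost with library totals alone, where the value shrank (−0.07, edgeR FDR = 0.376). It was also lost at nearly the same fold change at equal depth (−0.18, edgeR FDR = 0.103) and without the deeper (−0.22, edgeR FDR = 0.0798) or the shallower (−0.19, edgeR FDR = 0.122) 786-O-Ctrl library. ARID4A (0.82, edgeR FDR = 3.52e-07) and ARID4B (0.39, edgeR FDR = 0.000576), both RB1-binding proteins, were higher, ARID4B not at equal depth (0.18, edgeR FDR = 0.332), nor without the shallower 786-O-Ctrl library (0.27, edgeR FDR = 0.0657) or 786-O-VHL replicate 2 (0.23, edgeR FDR = 0.2). SIN3A (−0.16, edgeR FDR = 0.0721) and KDM5A (0.11, edgeR FDR = 0.236) were not called. SIN3A passed with limma-voom (−0.17, FDR = 0.0405), with RLE factors (−0.17, edgeR FDR = 0.0495) and without 786-O-VHL replicate 1 (−0.23, edgeR FDR = 0.00359), and KDM5A with library totals alone (0.25, edgeR FDR = 0.0112).

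Genes for the ubiquitin ligases that degrade E2F factors or their regulators were lower in 6 of 7 cases, with 1 not called (edgeR; median −0.91). SKP2, the F-box protein that targets p27 and p130, was at 77.8 and 77.0 CPM in 786-O-Ctrl against 21.7 and 23.6 CPM in 786-O-VHL. All 786-O-VHL values were far below those of 786-O-Ctrl (−1.74, edgeR FDR = 5.54e-16). Cyclin F (CCNF, −1.15), DDB1 (−0.94), CDC20 (−0.91), the SKP2 cofactor CKS1B (−0.47) and FZR1 (−0.40) were lower too. CUL4A was at 80.8, 80.2, 82.8 and 84.0 CPM (0.06, edgeR FDR = 0.492) and was called higher with library totals alone (0.19, edgeR FDR = 0.018).

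Of 37 E2F targets that act at G1/S, all 37 were lower at an edgeR FDR under 0.05, with a median log2 fold change of −1.78 and a range of −3.89 to −0.75, and 13 passed the 4-fold threshold. Their summed level was 4685 and 4476 CPM in 786-O-Ctrl against 1419 and 1459 CPM in 786-O-VHL. The 4 with the largest fitted falls were CCNE2, the helicase subunit MCM4 (444 and 412 against 55.3 and 56.3 CPM, −2.93, edgeR FDR = 3.16e-22), the ribonucleotide reductase subunit RRM2 (246 and 245 against 40.0 and 39.1 CPM, −2.64, edgeR FDR = 2.46e-21) and the origin recognition subunit ORC1 (29.5 and 28.6 against 3.39 and 4.99 CPM, −2.62, edgeR FDR = 3.11e-14). Their order is not fixed, since ORC1 (−3.10) and MCM4 (−2.96) fell more than CCNE2 (−2.68) without 786-O-VHL replicate 2, and likewise at equal depth (−3.56, −2.96 and −2.89). Of 23 tested targets of the DREAM complex that act at G2/M, 21 were lower and 2, CDC25C (−0.23) and CENPA (−0.00), were not called, the pair being named after their values were seen. The median was −0.89 and the lowest value −1.45. Summed CPM of this list was 4204 and 4174 in 786-O-Ctrl against 2252 and 2452 in 786-O-VHL. KIF11 (−1.45), KIF20A (−1.38), MKI67 (−1.26) and CCNB1 (−1.22), which serve spindle assembly, cytokinesis, chromosome surface and mitotic entry, fell most. Both lists were chosen with earlier results of these data known, so their direction is no independent evidence, and the difference between the lists was not tested.

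**Figure D5:**
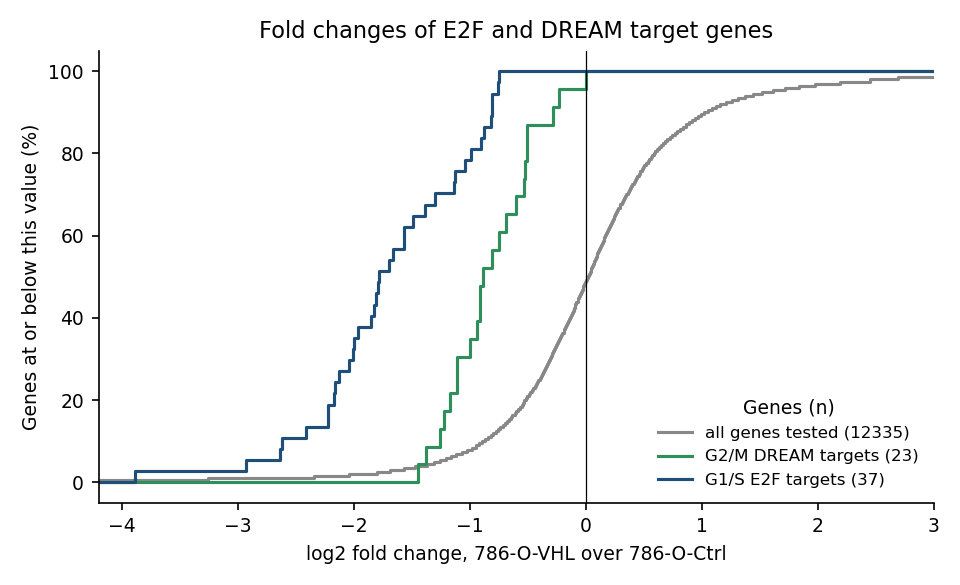
Cumulative share of genes (%) against log2 fold change (786-O-VHL over 786-O-Ctrl) for the G1/S targets, the G2/M targets and all genes tested, the last drawn from quantiles. The medians are −1.78, −0.89 and 0.02.

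The promoters of the target lists differ in their letters. E2F letters are in the windows of 13 of 30 G1/S genes with a window (43.3%) and of 2 of 19 G2/M genes (10.5%), against 1.4% of all genes and 2.4% of the genes tested. The CHR letters bound by the MuvB core (TTTGAA or TTCGAA, both strands) are in 2 of 30 (6.7%) and 14 of 19 (73.7%), against 19.5% of all genes and 15.3% of the genes tested. CCAAT is in 21 (70.0%) and 17 (89.5%), against 39.7% and 43.2%. Across the whole table, 239 tested gene identifiers had E2F letters in a window, of which 98 (41.0%) were lower and 58 (24.3%) higher, with a median of −0.13. Of 9561 with a window but no such letters, 32.4% were lower and 32.3% higher, with a median of 0.01. The first set contains members and listed targets, and the shares are given without a test.

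Of 10 genes by which E2F1 is known to promote apoptosis, 5 were lower, 4 higher and 1 not called (edgeR; median −0.27). The shares over all genes tested were 31.9% lower and 32.6% higher. The p53 relative TP73 had 68 and 60 counts in 786-O-Ctrl against 0 and 12 in 786-O-VHL (−2.56, edgeR FDR = 1.46e-05). TP73 passed the filter on low counts only through 786-O-Ctrl, so its call among the 5 lower supports no count. Without 786-O-VHL replicate 1, the library at 0, the value was −2.31 (edgeR FDR = 3.31e-05). Without replicate 2 the fitted value was −8.54 (edgeR FDR = 0.00117), which rests on that 0 alone and gives no size, since 3 counts equal 1.02 CPM there. TP73 had too few counts for a test at equal depth. DIABLO (−1.25, edgeR FDR = 0.00584, at 4 to 53 counts) and HTRA2 (−0.77, edgeR FDR = 2.6e-10) were lower as well. Annotated genes overlap DIABLO on both strands, and how shared reads were counted is not given. The BH3-only genes went up, BBC3 from 25.3 and 24.0 to 51.2 and 66.8 CPM (1.34, edgeR FDR = 2.33e-12), BCL2L11 (1.05, edgeR FDR = 2.71e-08) and PMAIP1 (0.71, edgeR FDR = 8.08e-08). The call of DIABLO was lost with DESeq2 (−1.25, standard error 0.64, FDR = 0.0975), without the shallower 786-O-Ctrl library (−1.10, edgeR FDR = 0.077) and without 786-O-VHL replicate 2 (−1.04, edgeR FDR = 0.248), at larger standard errors than the 0.385 of the main fit.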

How the data were processed

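RNA-seq of 4 libraries was analysed from the raw counts per gene that the authors deposited, whole numbers for 12912 genes. The submitters' processing notes name CASAVA, STAR and hg19. Strand use, counting tool and annotation were not given in the sources used. The study used DESeq2. Both 786-O-Ctrl columns carry the same replicate number and are told apart by depth. Differential expression was fitted in R 4.3.3 with edgeR 4.0.16 (filterByExpr at a minimum count of 10, TMM, quasi-likelihood F test, Benjamini-Hochberg over 12335 genes; common dispersion 0.00186, 25.5 prior degrees of freedom). The smallest p of an exact two-sided permutation test of 2 against 2 is 0.333, so calls rest on a spread shared between genes. Standard errors are those implied by the F statistic. Alternatives were DESeq2 1.42.0, limma-voom (limma 3.58.1), RLE factors, library totals, other filters, thinning to the shallowest library and leaving out each library. Scripts were tested on simulated data. Coordinates and exon lengths came from a GENCODE annotation on GRCh37, and promoters from RefSeq. Members and lists were chosen with earlier results of these data known. Named genes are the members and VHL, every gene of lists of at most 9, and of longer lists the 4 with the largest rise and the 4 with the largest fall at an FDR under 0.05. Some genes of the lists are not reported here by name.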

Additional observations from a re-analysis of the deposited data

How the results depend on the processing

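In 11 alternative analyses the family had 5 to 7 members lower. It had 0 higher except with library totals alone, where 1 (RBL2) was. E2F1, E2F7, E2F8, TFDP1 and RBL1 were called lower in all 11, with log2 fold changes of −2.65 to −2.45, −0.95 to −0.57, −1.57 to −1.35, −1.23 to −0.97 and −1.46 to −1.28. Leaving out 1 library at a time gave 6 members lower each time, and DESeq2, library totals and thinning gave 5, without E2F3 and E2F4. G1/S targets were lower in 35 to 37 cases and G2/M targets in 21. Genes of the other lists were lower in 21 to 28 cases (27 in the analysis reported, TP73 among them) and higher in 8 to 16 (12, CCND2 among them). The calls of TP73 and CCND2 support no count. Library totals alone moved the median of all genes by 0.13, from 0.02 to 0.15, and the lower share of all calls from 49.5% to 37.9%, and the cause of that shift was not tested. Over all genes 2843 to 4082 were lower and 2794 to 5077 higher. Signs turned for 6 named genes. E2F6 was −0.03 with DESeq2, −0.00 with RLE factors, −0.11 after thinning and −0.09 to 0.04 when a library was left out (−0.05 without the deeper 786-O-Ctrl library). RB1 was 0.13 with library totals, 0.17 after thinning and −0.04 to 0.00 when a library was left out, 0.00 being without 786-O-VHL replicate 1. CDK6 was 0.03 with library totals and CUL4A −0.06 after thinning. When a library was left out, LIN9 ranged from −0.73 to 0.03 and SIN3A from −0.23 to 0.01, positive without 786-O-VHL replicate 2. The causes were not tested. LIN37, CCND2, TP73 and DIABLO had too few counts for a value after thinning or with at least 10 counts in every library, CCNE2 for the latter, and CCND2 also without either 786-O-VHL library. A group left with 1 library was assumed to vary like the other. No paired analysis was possible because both 786-O-Ctrl columns carry the same replicate number. Depth limits genes with few counts in 786-O-VHL replicate 1, where 3 counts equal 1.02 CPM.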
